A study of Mus musculus with 12 samples.

Results

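The data described here are the poly(A) transcriptomes of 6 control cultures of mouse hippocampal cells, out of 12 cultures sequenced in the study. The cultures were chosen by their label alone, as those treated with a negative control oligonucleotide instead of a miR-148a-3p mimic, and levels were not compared with those of the mimic cultures, which served only to see how many variable genes a separate fit of them calls. Hippocampi of embryonic day 17 (E17) CD1 embryos, an outbred stock, were pooled across a litter, dissociated and plated, so that a culture mixes animals and holds neurons together with glia. At 10 days in vitro (DIV10) the cells received lipid nanoparticles with the control oligonucleotide, and they were harvested 48 hours later, at DIV12. According to the methods of the study, ApoE4 was added to the neurons with the nanoparticles, so these are not untreated cells. The cell type label reads primary hippocampal neurons, whereas marker genes of several other cell classes were also present, as described below. No label states whether the 6 replicates came from separate preparations, so the p-values given here measure the spread between these samples, which may be technical.

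The oligonucleotide that all 6 cultures received is shown because it defines the group, beside the microRNA whose mimic it stands in for. Capitals mark the seed, bases 2 to 8, which pairs with target transcripts. The control sequence comes from the reagent list of the study, which gives it as a negative control for mimics, while the submitters' design text speaks of a control siRNA and the methods of scrambled RNA. The miR-148a-3p sequence is that of RefSeq for GRCm38.p6.
negative control oligonucleotide: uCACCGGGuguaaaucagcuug
mmu-miR-148a-3p: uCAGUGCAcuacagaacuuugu
The control seed was found in 0 of 1679 mature mouse miRNAs. The miR-148a-3p seed was found in 3 of them, which are miR-148a-3p itself, miR-148b-3p and miR-152-3p.

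As background, the hippocampus is built mainly of glutamatergic pyramidal and granule neurons, controlled by a smaller number of GABAergic interneurons. Fast excitation runs through AMPA and NMDA type glutamate receptors and fast inhibition through GABA-A receptors, each assembled from subunits whose choice changes as neurons mature. Astrocytes clear transmitter and supply metabolites, microglia are the resident immune cells of the brain, and oligodendrocytes form myelin.

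Between 20018234 and 37149112 reads were counted per library, and control 1 was the shallowest. In a principal component analysis of log2 CPM, counts scaled to the size of the library, the first component held 43.5% of the variance and set control 1, at 49.0, apart from the other cultures, which lay between -16.4 and 7.19. The level of a gene in control 1 also followed its GC content, computed here from its longest transcript. In the tenth of genes with the lowest GC content (mean 39.2%), the median deviation of control 1 from the gene's median over the 6 cultures was -0.31 on the log2 scale. In the tenth with the highest GC content (mean 60.2%) it was 0.30. Control 2 leaned the same way, from -0.21 to 0.13, and the tilt of controls 4, 5 and 6 was the opposite and smaller. Spearman's correlation of the deviation with GC content, across 12281 genes that are not independent replicates, was 0.76 in control 1, 0.71 in control 2 and -0.66 in control 5. No pair of libraries agreed within counting noise: the chi-square statistic per degree of freedom was at least 1.77 in every pair, over 12687 genes.

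**Figure D1:**
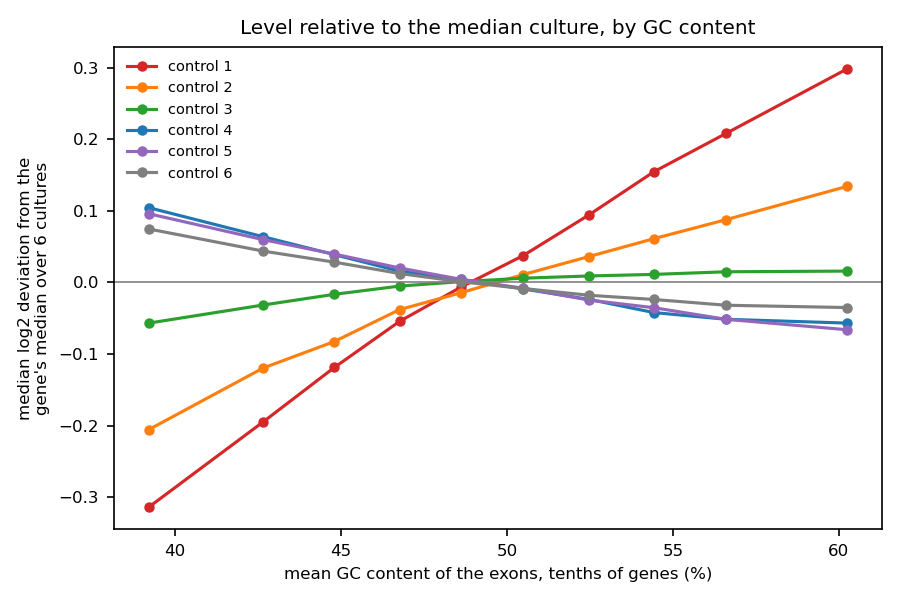
Median log2 deviation of each control culture from the gene's median over the 6 cultures (vertical axis) against the mean GC content of the longest transcript in percent (horizontal axis), in 10 equal groups of 12281 genes with a mean of 100 counts or more. Each line is a culture, and control 1 rises from -0.31 to 0.30 while control 4 falls from 0.10 to -0.06.

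Levels between genes are given in TPM, which divide a count by the length of the gene's exons and scale each library to the same total. At a minimum of 1 TPM in all 6 cultures, 15160 of 48349 genes were detected, or 31.4%. Among protein-coding genes the count was 13216 of 21695 and among lncRNA genes 1271 of 9930. The output was concentrated: the 100 highest genes took 24.8 ± 1.71% (SD, n = 6) of all TPM and the 1000 highest took 53.7 ± 0.853%. In all, 65 genes reached 1000 TPM in every culture and 1745 reached 100 TPM.

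The 3 highest genes of the mitochondrial chromosome were mt-Cytb, mt-Co1 and mt-Nd1, which encode subunits of respiratory complexes III, IV and I. The level of mt-Cytb was 18806 TPM in the lowest culture, 28258 in the median and 30071 in the highest. The level of mt-Co1 ran from 13644 through a median of 19117 to 20184 TPM, and that of mt-Nd1 from 10687 through 18141 to 20206. For all 3 genes control 1 was the lowest culture, and the share of TPM taken by the mitochondrial chromosome ranged from 7.73% to 13.4%. Since TPM sum to the same total in each library, this share also moves the level of every nuclear gene. Of the 13 mitochondrial protein-coding genes, 6 had 0 counts in all cultures (mt-Co2, mt-Co3, mt-Atp6, mt-Atp8, mt-Nd3 and mt-Nd4l). All cells that respire use these genes, so the zeros are no measure of their expression.

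A related limit concerns nuclear genes with near-identical copies elsewhere in the genome, named here after their values were seen. The glycolytic enzyme gene Gapdh had 9.36 ± 0.844 TPM (n = 6), the cytoplasmic actin gene Actg1 3.93 ± 0.469 TPM and the cyclophilin gene Ppia 10.4 ± 1.67 TPM. Other genes of the same 12 were high, with the cytoplasmic actin gene Actb at 1689 ± 37.2 TPM, the ferritin gene Fth1 at 1013 ± 86.0 TPM and the elongation factor gene Eef1a1 at 973 ± 46.6 TPM. The 83 ribosomal protein genes together held 0.714% of TPM. These are genes that every cell uses at high levels, and their place in the ranking is uncertain where reads could not be assigned to a single copy.

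Among nuclear genes the highest was Cpe (chromosome 8, 64592542 to 64693054 in GRCm38), carboxypeptidase E, which trims prohormones in secretory granules. Its level was 5687 TPM in the lowest culture, 5717 in the median and 6585 in the highest, control 1. Cst3, the protease inhibitor cystatin C, followed at 4395, 4582 and 5231 TPM, again highest in control 1. The other cultures lay close together for both genes, as the plot of the highest nuclear genes shows.

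**Figure D2:**
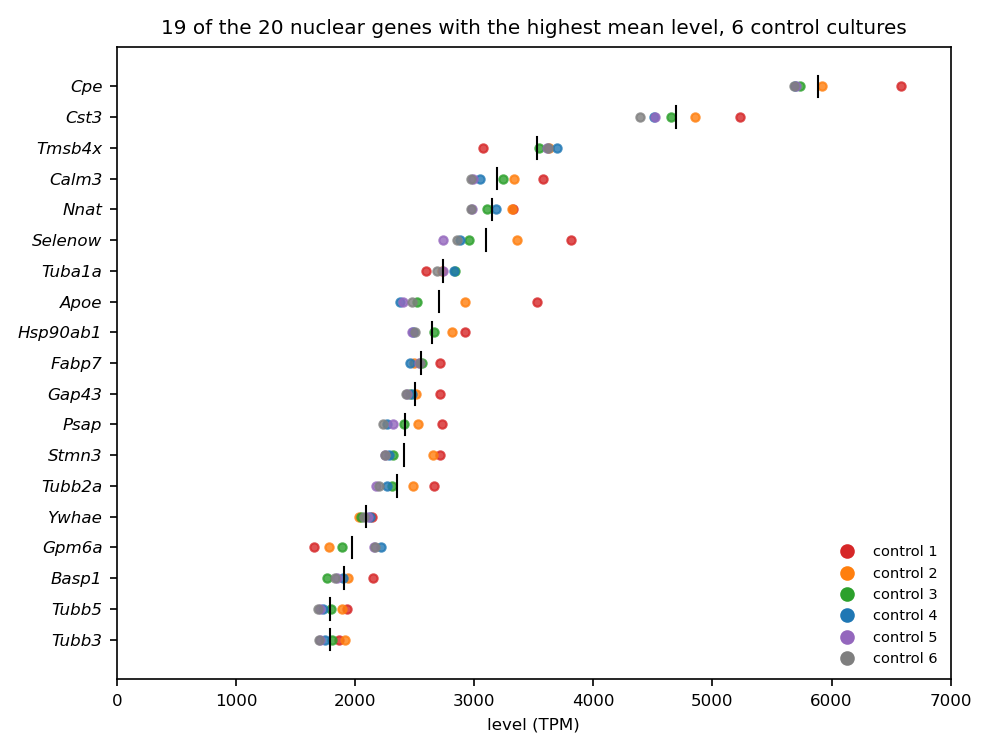
Level in TPM (horizontal axis) of 19 of the 20 nuclear genes with the highest mean, with a point for each of the 6 control cultures and a bar at the mean. Cpe lies between 5687 and 6585 TPM and Tubb3 between 1695 and 1913, and control 1 stands to the right for Cpe, Apoe and Selenow and to the left for Tmsb4x and Gpm6a.

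Genes of the cytoskeleton and its regulation took 8 of the 20 places. Tmsb4x, which sequesters actin monomers, averaged 3529 ± 227 TPM (n = 6), and the tubulin genes Tuba1a, Tubb2a, Tubb5 and Tubb3 averaged 2736, 2350, 1792 and 1787 TPM. The growth cone protein genes Gap43 and Basp1 averaged 2504 ± 105 and 1906 ± 135 TPM, and Stmn3, a regulator of microtubules, averaged 2412 ± 211 TPM. Genes of signalling and stress proteins were also among the 20: the calmodulin gene Calm3 averaged 3195 TPM, the 14-3-3 protein gene Ywhae 2089 and the chaperone gene Hsp90ab1 2646. The imprinted gene Nnat averaged 3147 ± 155 TPM, the selenoprotein gene Selenow 3099 ± 410, the lysosomal precursor gene Psap 2415 ± 188 and the neuronal membrane protein gene Gpm6a 1977 ± 238. Apoe, the main lipid carrier of the brain, averaged 2704 ± 449 TPM and Fabp7, a fatty acid binding protein gene known from radial glia and astrocytes, 2552 ± 85.7. The mouse Apoe transcript measured here is separate from the ApoE4 protein that was added.

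Of lncRNA genes the imprinted Meg3 was highest, with 624 TPM in the lowest culture, 737 in the median and 873 in the highest. Malat1, a nuclear RNA, followed at 580, 640 and 683 TPM. Cct6a, a chaperonin gene that the annotation lists among lncRNA genes although it encodes a protein, averaged 345 ± 14.8 TPM. The remaining 7 were 1700020I14Rik at 283 TPM, Xist at 280, 2410006H16Rik at 202, Miat at 185, Peg13 at 134, Rian at 116 and Gm3764 at 115. With the longest transcript as length, Gm3764 had 234 TPM and Rian 203 TPM, against 217 TPM for Xist and 103 TPM for Peg13. Meg3 and Rian lie in the same imprinted cluster on chromosome 12, and Xist is the RNA that silences an X chromosome. Xist stood beside the Y-linked genes Eif2s3y, at 15.1 ± 1.64 TPM, and Ddx3y, and both kinds of transcript were present in every culture, each of which came from pooled embryos.

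Marker genes of cell classes were then read as levels. All 15 general neuronal markers were detected in every culture, and their summed level was 9439 TPM in the lowest culture, 9612 in the median and 9795 in the highest. Gap43 led, followed by Tubb3 and by Stmn2 at 1299 ± 37.5 TPM, and the RNA-binding protein gene Elavl4 was the lowest at 31.5 TPM. The sum over neuronal markers was the steadiest of all lists, with the highest culture 1.04 times the lowest. Its members did not move together: in control 1, 6 of the 15 had their highest level and 5 their lowest, among the latter Dcx and Map2. In a bulk sample, fewer cells of a type and less RNA per cell cannot be told apart, which holds for every level given here.

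Glutamatergic markers were high and included those of hippocampal projection neurons. The kinase gene Camk2a had 794 TPM in the lowest culture, 820 in the median and 1002 in the highest. The transcription factor gene Neurod6 had 662, 742 and 776 TPM, and the vesicular glutamate transporter gene Slc17a7 had 520, 572 and 663 TPM. All 10 list members were detected. Slc17a7 exceeded Slc17a6, the other main vesicular glutamate transporter, by between 14.6 and 25.7 times in the individual cultures.

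Interneuron markers were lower. Calb2, the calretinin gene, stood apart at 881, 959 and 1236 TPM in the lowest, median and highest cultures, but granule cells and Cajal-Retzius cells can also express it. The GABA-synthesizing enzyme gene Gad1 averaged 95.7 ± 2.80 TPM. The vesicular GABA transporter gene Slc32a1 averaged 33.6 TPM, so that Slc17a7 exceeded it by 14.4 to 18.8 times. On the log2 scale this difference was 4.11, and it was 4.92 with the longest transcript as length and 5.06 in CPM. Vip, a peptide of a late-maturing interneuron class, was the lowest of the 14 members at 2.77 TPM. Of 5 markers of Cajal-Retzius cells, the early neurons that line the hippocampal fissure, Reln had 15.8 TPM, Ndnf 4.31 and Trp73 1.93. The other 2 were below 1 TPM, with Lhx5 the lowest at 0.318 TPM.

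**Figure D3:**
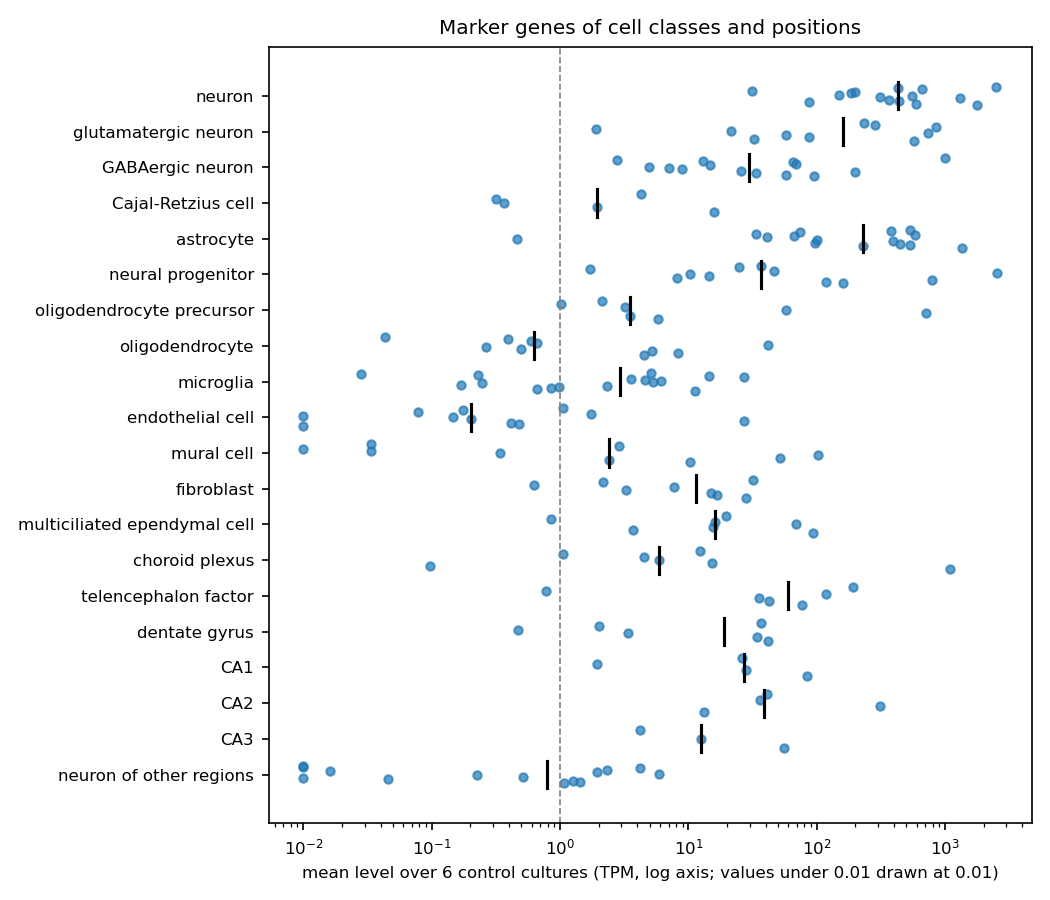
Mean level over 6 control cultures in TPM (horizontal log axis, values under 0.01 drawn at 0.01) of every marker gene, grouped by cell class or position (vertical axis). Points are genes, the black bar is the median of the list and the dashed line is 1 TPM, and the neuronal and astrocytic lists have medians of 426 and 227 TPM against 0.204 TPM for endothelial markers.

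The astrocyte signature was strong. Gfap, an intermediate filament gene, had 1219 TPM in the lowest culture, 1340 in the median and 1457 in the highest. The glycolytic gene Aldoc averaged 587 ± 76.5 TPM and the glutamate transporter gene Slc1a2 536 ± 37.6 TPM. Of the 15 markers 14 were detected, and the exception was the connexin gene Gjb6 at 0.460 TPM, whereas the other astrocytic connexin gene, Gja1, had 99.7 ± 5.75 TPM. Progenitor markers were led by Fabp7, by the intermediate filament gene Vim at 794 ± 65.6 TPM and by Nes at 159 TPM, and Eomes, which marks intermediate progenitors of neurons, was the lowest at 1.71 TPM.

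The oligodendrocyte lineage was represented mainly by its early transcription factors. Olig1 had 580 TPM in the lowest culture, 629 in the median and 1140 in control 1, and Olig2 averaged 57.8 TPM. The surface receptor gene Pdgfra, which defines precursors in tissue, averaged 5.84 TPM and Gpr17 1.02 TPM. Olig1 therefore carried most of the summed level of the precursor list, 785 ± 217 TPM, and astrocytes and progenitors can also express it. Of 10 myelinating cell markers 6 were below 1 TPM: Cnp reached 41.9 TPM and Mog 5.17, and Opalin was at 0.0433 TPM.

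Markers of other non-neuronal classes were mostly low. Among 16 microglial markers the lysosomal gene Cd68 had 14.5 TPM and Aif1 11.3, and 7 were below 1 TPM, down to Siglech at 0.0284. Of 11 endothelial markers, Kdr at 27.0 TPM, Slco1a4 at 1.74 and Esam at 1.06 exceeded 1 TPM on average, and 1 of the 11 reached it in every culture. The tight junction gene Cldn5 had 0 counts in all cultures, which allows up to 0.0173 CPM over the 6 libraries. That limit covers counting error only. Mural cell markers were led by the contractile genes Tagln and Acta2, at 103 ± 32.4 and 51.3 ± 24.8 TPM, and then by Pdgfrb at 10.4, while the potassium channel subunit gene Abcc9 was at 0.00978 TPM. Fibroblast markers were led by Igf2, between 26.7 and 39.8 TPM, Col1a1 at 28.0 and Col1a2 at 16.7, and Slc6a13 was at 0.632.

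Cells of the ventricular wall were also represented. Ttr, transthyretin, which the choroid plexus secretes, had 716 TPM in the lowest culture, control 1, 1139 in the median and 1409 in the highest, control 3. The folate receptor gene Folr1 and the transcription factor gene Otx2 averaged 15.4 and 12.3 TPM, and Kl, the Klotho gene, 0.0967. Foxj1, the master regulator of motile cilia, averaged 94.1 ± 7.54 TPM, Rsph1 68.4 and Cfap126 19.6, and Mcidas was the lowest of the 7 multiciliated cell markers at 0.853 TPM.

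Markers of the telencephalon and of each hippocampal field were present. Zbtb20, needed for hippocampal fate, averaged 192 TPM and Lhx2 118, with Lef1 at 0.772. Dentate granule cell markers were led by Prox1 at 41.5 TPM, Calb1 at 36.6 and C1ql2 at 34.2, with Lct at 0.471, and CA1 markers by Wfs1 at 84.6, Fibcd1 at 28.1 and Mpped1 at 26.1, with Pou3f1 at 1.93. Of the CA2 list Pcp4 had 309 TPM, Cacng5 41.3, Amigo2 35.9 and Rgs14 13.2, and of the CA3 list Grik4 had 55.7, Bok 12.6 and Iyd 4.21. Against this, the 14 markers of neurons of other regions had a median of 0.796 TPM. The highest of them were Drd1 at 5.90 TPM and the midbrain and hindbrain factors En2 and En1 at 4.17 and 2.33 TPM, and the hindbrain factor Hoxb3 had 0 counts in all cultures.

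Summed over 48 markers of astrocytes, oligodendrocyte lineage and microglia, the glial level was 5457 TPM in the lowest culture, 5661 in the median and 6690 in the highest. The mean, 5786 ± 455 TPM, is 0.579% of all transcripts, and astrocyte markers made up 4855 TPM of it. This is a sum over chosen markers and not a share of cells.

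Subunits of receptors and channels were ranked within 36 families with 190 members, of which 160 averaged at least 1 TPM. Each neighbour in a ranking was compared with the next by an exact paired permutation test over the 6 cultures, two-sided, whose smallest possible p is 0.03125. After Benjamini-Hochberg adjustment over 139 pairs, 118 pairs (84.9%) were told apart at 0.05, each with an adjusted p of 0.0368 and the same order in 6 of 6 cultures. The order itself was taken from the same cultures. In the remaining 21 pairs the difference was within the spread between cultures, which does not show the levels to be equal.

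AMPA receptors, which carry most fast excitation, were dominated by Gria1 (chromosome 11, 57011387 to 57330244 in GRCm38). Gria1 had 478 TPM in the lowest culture, 502 in the median and 527 in the highest, and Gria2, whose edited subunit blocks calcium entry, had 202, 249 and 257 TPM. The difference was 1.07 ± 0.19 on the log2 scale, between 1.87 and 2.60 times in the individual cultures. Gria2 exceeded Gria4 by 2.66 ± 0.07, and Gria4 and Gria3, at 37.7 and 37.0 TPM, were not told apart by the exact permutation test (adjusted p = 0.238).

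Of the auxiliary proteins that shape AMPA receptor trafficking, the cornichon gene Cnih2 was highest, at 1000, 1068 and 1432 TPM, above Cacng7 at 181 TPM by 2.65 ± 0.09 on the log2 scale. Shisa6 followed at 134 TPM, then Cacng8 at 89.9, Shisa7 at 82.1, Cacng4 at 77.7 and Shisa9 at 63.0. Cnih3, Cacng5, Cacng2, Gsg1l and Cacng3 descended from 49.5 to 9.02 TPM, so all 12 members were detected. Cacng2, which encodes the founding member stargazin, was among the 3 lowest.

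NMDA receptors need the Grin1 subunit, and their kinetics depend on the Grin2 partner. Grin1 had 128 TPM in the lowest culture, 136 in the median and 170 in the highest, and Grin2b, the partner that prevails early in life, had 101, 116 and 122 TPM. Grin2a, which rises as synapses mature, had 18.2, 20.9 and 22.4 TPM. The Grin2b level was 5.50 ± 0.0429 times that of Grin2a (n = 6), with the cultures between 5.46 and 5.58, the tightest ratio among the 13 computed. Grin3a at 13.1 and Grin2c at 12.1 TPM were not told apart (exact permutation test, adjusted p = 0.368), Grin2d averaged 2.92, and Grin3b was below 1 TPM. Grin2c was 17.9 TPM in control 1 and at most 13.2 in any other culture.

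Kainate receptors were led by the auxiliary-type subunit Grik5 at 134, 149 and 193 TPM, followed by Grik4 at 55.7, Grik2 at 29.5, Grik3 at 16.0 and Grik1 at 9.28 TPM. Among metabotropic glutamate receptors, Grm5, the Gq-coupled postsynaptic receptor, had 118, 131 and 142 TPM. Grm7 at 48.4 and Grm3 at 43.3 TPM were not told apart (exact permutation test, adjusted p = 0.103), Grm4 and Grm2 both averaged 10.1, and Grm8 1.20 TPM. Grm6, a receptor of the retina, was below 1 TPM.

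GABA-A receptor alpha subunits were led by Gabra5 and Gabra2. Gabra5, which forms extrasynaptic hippocampal receptors, had 353 TPM in the lowest culture, 369 in the median and 389 in the highest, and Gabra2 had 241, 314 and 337 TPM. Gabra4 averaged 63.9 TPM and Gabra3 24.7. The step from Gabra5 to Gabra2 was small, 0.32 ± 0.17 on the log2 scale, though in the same direction in 6 of 6 cultures. With the longest transcript as length it was 0.088 and no longer passed the exact permutation test.

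Of the beta subunits Gabrb1 averaged 141 TPM and Gabrb2 62.8 TPM. Gabrd at 8.33 and Gabrg3 at 7.25 TPM were not told apart (exact permutation test, adjusted p = 0.103), and Gabrg1 averaged 3.60. The metabotropic GABA-B receptor genes Gabbr1 and Gabbr2, which form an obligate dimer, averaged 318 and 239 TPM. Of the glycine receptor genes, Glrb had 118 ± 16.0 TPM and the fetal alpha subunit Glra2 41.8 TPM, and the other 3 were below 1 TPM.

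Whether GABA excites or inhibits depends on chloride cotransporters: Slc12a5 (KCC2) extrudes chloride and Slc12a2 (NKCC1) imports it. Slc12a5 had 165 TPM in the lowest culture, 176 in the median and 214 in the highest, and Slc12a2 had 17.4, 22.9 and 24.4 TPM. The ratio had a median of 7.70 and ranged from 6.86 to 12.3, the largest value being that of control 1, where Slc12a5 was highest and Slc12a2 lowest. Glia also express Slc12a2, so the ratio is that of the culture and not of its neurons.

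**Figure D4:**
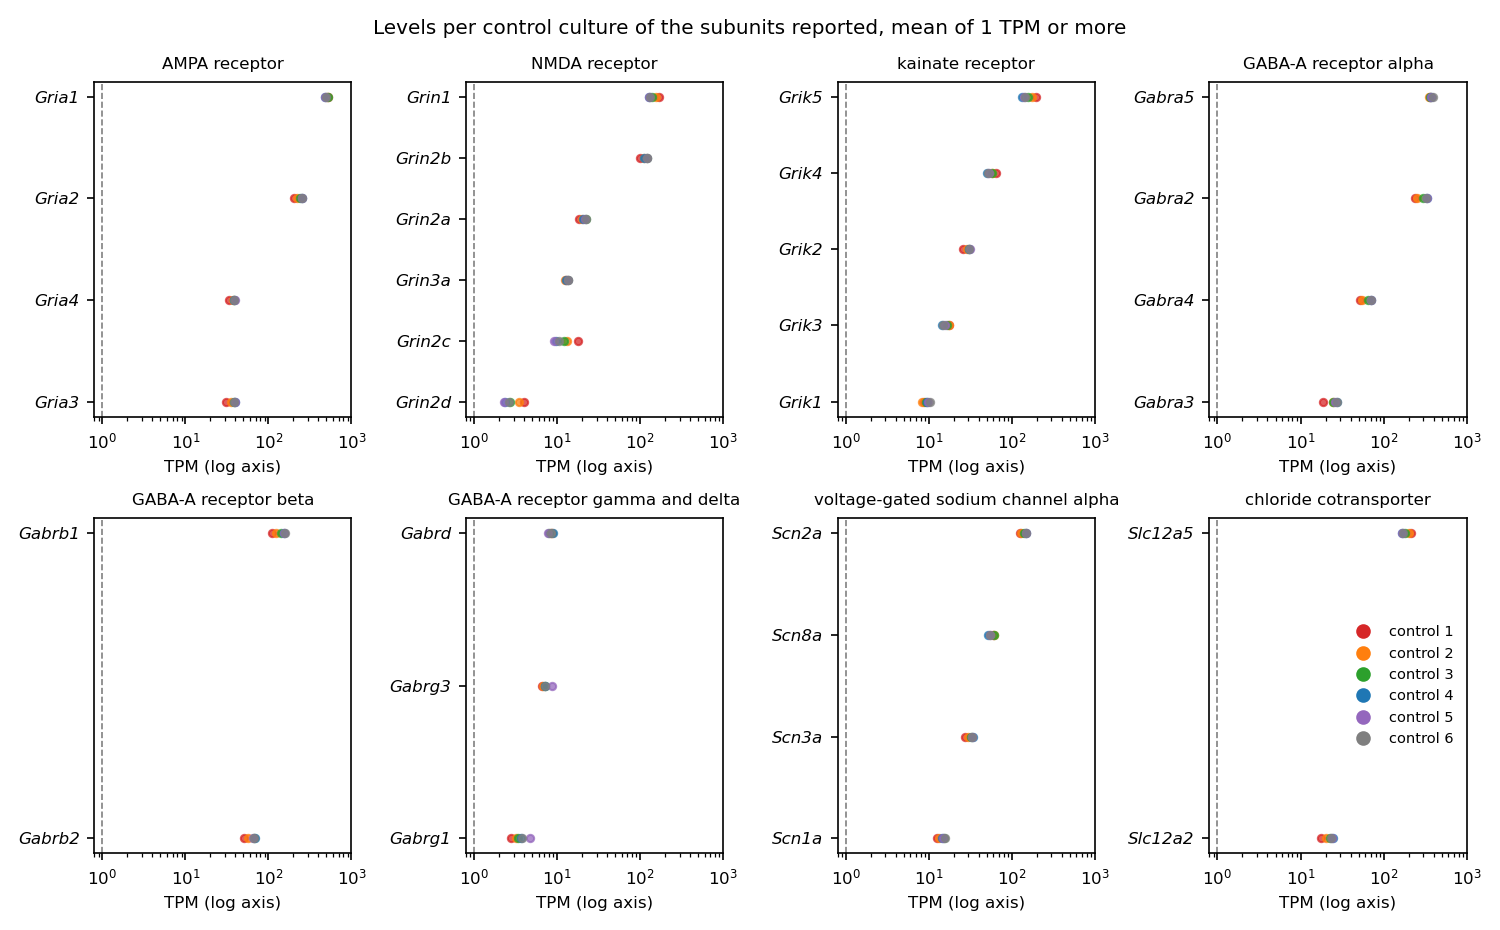
Level in TPM (horizontal log axis) of the subunits reported with a mean of 1 TPM or more in 8 families, with a point for each of the 6 control cultures and the dashed line at 1 TPM. Gria1 lies above Gria2, Gabra5 above Gabra2, Scn2a above Scn1a and Slc12a5 above Slc12a2 in every culture.

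Among voltage-gated sodium channels, which start the action potential, Scn2a had 127, 144 and 150 TPM in the lowest, median and highest cultures. Scn8a, which takes over at mature axon initial segments, averaged 57.1 TPM, the embryonic subunit Scn3a 31.6 and the interneuron subunit Scn1a 14.3 TPM. Scn2a exceeded Scn1a by 9.13 to 10.2 times. Below 1 TPM were 4 members, among them the sensory neuron subunits Scn9a, Scn10a and Scn11a. The beta subunits Scn3b and Scn2b averaged 142 and 80.1 TPM.

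Calcium channel pores were led by Cacna1b, the N-type channel of presynaptic terminals, at 99.7, 111 and 118 TPM. The T-type channel Cacna1h averaged 66.4 TPM and the P/Q-type channel Cacna1a 49.9, and Cacna1e, Cacna1c, Cacna1g, Cacna1d and Cacna1i ran from 43.5 to 14.0 TPM. Of the partners, Cacnb3 averaged 118 TPM, Cacnb1 89.5, Cacnb4 29.9 and Cacnb2 12.4, and Cacna2d3 and Cacna2d1 averaged 60.3 and 57.1 TPM, ahead of Cacna2d2 at 3.87 and Cacna2d4 at 2.29. Cacna2d3 and Cacna2d1 were not told apart (exact permutation test, adjusted p = 0.428). Of the pacemaker HCN channels, Hcn2 had 71.9, 77.6 and 98.4 TPM, and Hcn3 averaged 39.3 and Hcn4 10.6 TPM.

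Potassium channels brake firing. Of the M-current genes, Kcnq5 averaged 103 TPM and Kcnq3 64.9. In the A-type Kv4 family Kcnd3 averaged 80.7 TPM, Kcnd2 66.4 and Kcnd1 12.9. In the Kv1 family Kcna1 averaged 63.1 TPM, Kcna4 52.0, Kcna6 41.0, Kcna3 31.7 and Kcna5 3.08, and Kcna2 had a median of 35.4. Kcnc1 and Kcnc4, of a family known from fast-spiking cells, were not told apart (exact permutation test, adjusted p = 0.0706), and Kcnc2 averaged 9.83 TPM. Kcnb2 averaged 10.6 TPM, and the calcium-activated channels Kcnma1, Kcnn2, Kcnn1 and Kcnn3 spanned 30.6 to 23.8 TPM. With the longest transcript as length Kcnn2 had 47.6 TPM and Kcnma1 33.3.

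For acetylcholine the alpha7 nicotinic subunit Chrna7 averaged 49.9 ± 1.92 TPM, Chrnb2 42.5, Chrna4 31.4 and Chrna5 4.57, and the other 7 nicotinic genes were below 1 TPM. Among muscarinic receptors Chrm1 averaged 56.8 TPM, Chrm4 28.9, Chrm3 27.4 and Chrm5 3.02. Of other vesicular transporters, Slc17a8 averaged 4.18 and Slc18a2 2.45 TPM. The glutamate uptake genes of astrocytes were the highest of their family, with Slc1a2 at 472, 553 and 565 TPM and Slc1a3 at 406, 448 and 469 TPM, followed by Slc1a4 at 292 TPM. The neuronal transporter Slc1a1 averaged 37.5 TPM, Slc1a6 16.5 and Slc1a5 4.60. The GABA transporter of astrocytes, Slc6a11, had 206, 214 and 245 TPM.

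Among the CaM kinase II genes, whose products sense synaptic calcium, Camk2a exceeded Camk2b, at 503 TPM, by 0.76 ± 0.08 on the log2 scale, and Camk2g averaged 104 and Camk2d 11.3 TPM. Of the synapsins, which tether synaptic vesicles, Syn1 and Syn2 averaged 663 and 492 TPM and Syn3 1.69. Beside Gja1, the neuronal gap junction gene Gjd2 averaged 37.3 TPM and Gjc1 9.80, and 3 connexin genes were below 1 TPM.

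In the amyloid precursor family, Aplp1 had 1250, 1324 and 1814 TPM in the lowest, median and highest cultures, App had 564, 591 and 663 TPM and Aplp2 averaged 513. The secretases that cut App were led by Bace1 at 106 ± 2.17 TPM, Ncstn at 97.4 and Adam10 at 90.1, followed at lower levels by Aph1b at 35.4, Psen2 at 21.6, Bace2 at 19.8, Psenen at 8.35 and Aph1a at 6.52. Of the receptors for Apoe, Lrp1 had 148, 161 and 201 TPM, Lrp8 averaged 96.4, Vldlr 59.1, Sorl1 57.6 and Lrp2 18.1. For the neurotrophins, Ntrk2, the BDNF receptor, averaged 200 TPM, Ntrk3 65.9 and Ngfr 13.8. The Argonaute proteins, which carry microRNAs and would load an oligonucleotide such as the one given here, were ordered Ago1 at 90.1 TPM, Ago2 at 61.3, Ago3 at 12.4 and Ago4 at 8.77.

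Other neighbours that were not told apart include Cacng8 and Shisa7, Grm4 and Grm2, Cacna1e and Cacna1c, Cacna1g and Cacna1d, Kcna2 and Kcna3, Chrm4 and Chrm3, Slc32a1 and Slc17a6, Ncstn and Adam10, Psen2 and Bace2, and Vldlr and Sorl1.

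The order within families depended on counting per length. With CPM, which leave out length, the leader changed in 12 of 36 families, and Gria2 passed Gria1, Grin2b passed Grin1, Gabra2 passed Gabra5 and App passed Aplp1. With the longest transcript as length it changed in 5 of 36, and Slc1a3, Syn2, Ncstn and Kcnn2 were among the new leaders. Of 332 genes at 1 TPM or more in the lists and rankings, 20 had a level over 1.5 times as high with the longest transcript. Among them were Grin1 at 250 TPM, Camk2b at 862, Gja1 at 204, Gad1 at 157 and Camk2d at 35.5 TPM.

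The last question was which genes varied most between cultures given the same treatment. Each gene was tested by the goodness-of-fit test of edgeR against the spread of genes of the same abundance, with Benjamini-Hochberg adjustment. Of 19012 genes tested, 388 (2.04%) varied beyond that trend at an adjusted p of 0.05, of which 313 were protein-coding. Most genes varied little: over 11887 protein-coding genes with a mean of 100 counts or more, the median coefficient of variation was 7.74%, and 83 of them (0.698%) differed 2-fold or more between the highest and the lowest culture.

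Most of these genes were lowest in the same culture. Of the 388 genes 270 (69.6%) were lowest in control 1, against 30.5% of all tested genes (5794). Their median GC content was 40.2% against 49.4% over all tested genes, which goes with the GC tilt of control 1 described above. When GC content and exon length were fitted per library, 374 genes were called, of which 164 were among the 388. Without control 1, 251 genes were called, of which 201 were among the 388. Of the 20 genes named below, 18 were called with the GC and length fit and 14 without control 1, where Ogn, Clic6, Samd9l, Pi15, Wfdc2 and Ccn5 were lost.

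The 20 genes named as most variable included genes of smooth muscle and extracellular matrix. Acta2, smooth muscle actin (chromosome 19, 34241090 to 34255590 in GRCm38), had 5.99 CPM in control 1, a median of 29.3 and 41.6 CPM in control 2, a 6.95-fold range (edgeR adjusted p = 1.74e-35). Ltbp2, a matrix protein that associates with elastic microfibrils, had 3.48, 8.53 and 19.8 CPM, again lowest in control 1 and highest in control 2 (edgeR adjusted p = 9.37e-21). The collagen cross-linking enzyme gene Lox had 5.74 CPM in control 1 and a median of 14.2, the matrix proteoglycan gene Ogn 4.89, 14.0 and 18.0 and the matricellular gene Ccn5 6.50, 13.1 and 19.3 CPM, all lowest in control 1. Tgfbi, an adhesion protein of the matrix, had its lowest value of 2.12 CPM in control 2 and its highest of 4.96 in control 5. Of 44 collagen genes tested, a group chosen after the values were seen, 7 were lowest in control 1, against 30.5% of all tested genes. The 3 called (6.82%, against 2.04% of all genes), Col1a2, Col3a1 and Col7a1, were highest in control 1. The median GC content of the 44 was 55.1%, against 49.4% over all tested genes, and control 1 was raised in GC-rich genes. Of the 3 calls, 2 were kept when GC content and length were fitted. Pi15 ranged from 3.27 to 8.29 CPM and the interferon-inducible gene Samd9l from 2.47 to 7.47, both lowest in control 1.

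**Figure D5:**
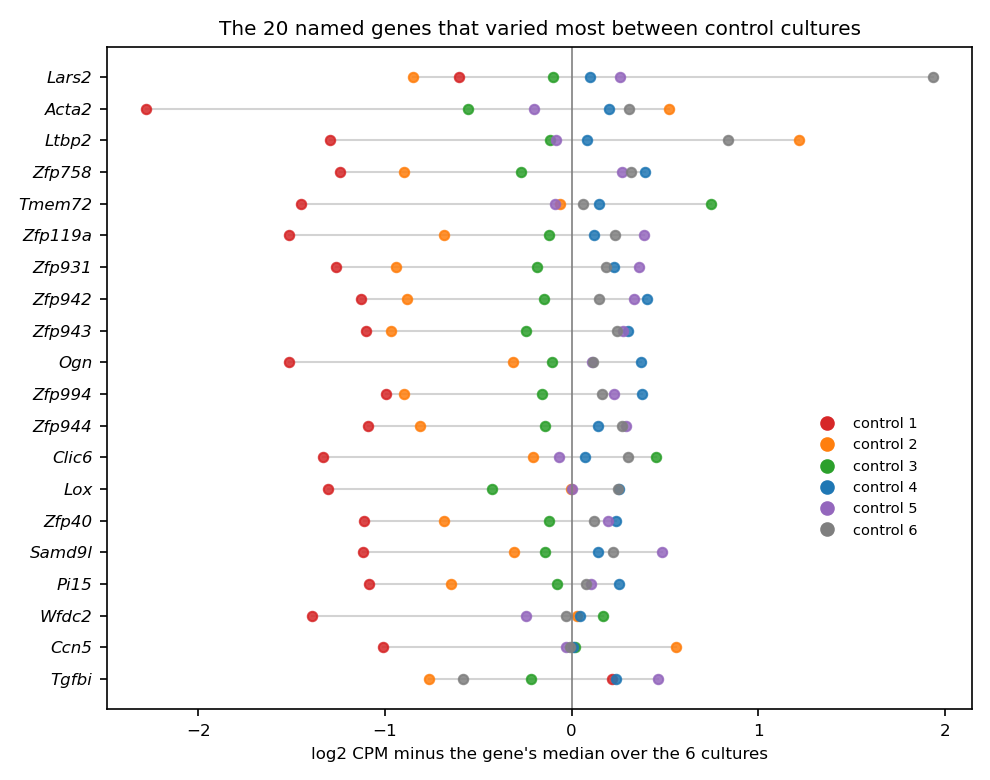
Log2 CPM minus the gene's median over the 6 cultures (horizontal axis) for the 20 named genes with the largest biological coefficient of variation among those past the goodness-of-fit threshold. Points are cultures, and control 1 is lowest for 18 of the 20 genes, the exceptions being Lars2, which is highest in control 6, and Tgfbi.

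Genes that choroid plexus epithelium expresses, Tmem72 and Clic6, were also among the 20. Tmem72 had 1.81 CPM in the lowest culture, 4.95 in the median and 8.31 in the highest, Clic6 had 1.71, 4.31 and 5.89, and the secreted protein gene Wfdc2 had 1.66, 4.35 and 4.89 CPM. All 3 were lowest in control 1, and Ttr, a list member outside the 20, was also called (edgeR adjusted p = 1.54e-05). Of 7 choroid plexus markers tested 2 were called, beside the 2.04% of all genes. Their summed level was 745 TPM in control 1, a median of 1179 and 1455 in control 3, and of mural markers it was 89.4 TPM in control 1, a median of 176 and 253 in control 2, where 2 of 6 tested were called, Acta2 and Tagln. Acta2 and Tagln held most of the mural sum, whereas the pericyte markers Pdgfrb, at 16.1 CPM against 10.2 to 14.9 elsewhere, and Rgs5, at 3.07 against 2.15 to 2.96 CPM, had their highest value in control 1 and were not called. Acta2, Tagln, Tmem72, Clic6, Wfdc2 and Ttr were all called when GC content and length were fitted.

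The other group was that of zinc finger genes, which encode DNA-binding repressors in tandem clusters. Of the 20 named genes 8 were Zfp genes, 7 of them on chromosome 17 between 21926960 and 55878930 in GRCm38: Zfp942, Zfp943, Zfp994, Zfp944, Zfp758, Zfp40 and Zfp119a. Zfp942 had 11.1 CPM in the lowest culture, 24.3 in the median and 32.1 in the highest, and Zfp40 had 17.3, 37.5 and 44.1. In all 8 genes control 1 was the lowest culture and control 2 the second lowest, and the highest culture exceeded the lowest by 2.55 to 3.73 times. Over all 377 Zfp genes tested, 47 were called (12.5%, against 2.04% of all genes), each of them lowest in control 1, and 16 of the 47 were called when GC content and length were fitted. The median GC content of the 377 was 44.6%, and the values of the 8 lay between 33.2% and 38.7%. The group was chosen after the values were seen.

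Lars2, the mitochondrial leucyl-tRNA synthetase gene, was the most variable of the 20, with 27.1 CPM in the lowest culture, 48.9 in the median and 186 in control 6 (edgeR adjusted p = 7.05e-75). The annotated ribosomal RNA gene CT010467.1 had 962 CPM in control 6 and 55.4 to 119 CPM elsewhere, and the miRNA gene Mir6236 49.0 against 3.94 to 10.5 CPM. These 2 genes were named after their values were seen. They rose with Lars2 in the same library, and the part of ribosomal RNA in the Lars2 value was not tested.

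Of the 363 genes over all lists, 341 were tested and 14 were called, beside 2.04% of all genes. Among cell class markers, Olig1 was highest in control 1, at 592 CPM against 306 to 338 elsewhere (edgeR adjusted p = 1.50e-06), and so were the dentate marker C1ql2, at 25.7 against 13.4 to 17.4 CPM, and the collagen genes Col1a2 and Col3a1. Dcx, a protein of migrating and young neurons, Vip and Xist were lowest in control 1. Of the 160 family members at 1 TPM or more, 2 were called, Grin2c and Lrp2, a share near the 2.04% of all genes. The cholinergic transporter gene Slc5a7 completed the 14. Without control 1 the calls of Olig1, C1ql2, Col3a1, Dcx, Vip, Xist, Grin2c and Lrp2 were lost, as was that of Clic6.

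At the steady end, 10 protein-coding genes with no spread beyond counting error and the highest counts included Ncor1, Hnrnpul2, Kif3a, Snn, Rpn2, Npepps, Fam120a, Ap3m2 and Arf2. Ncor1, a nuclear receptor corepressor, had 299 to 306 CPM with a coefficient of variation of 0.988%, and Kif3a, a kinesin motor, 243 to 252 CPM with 1.19%. In total 1149 of the 11887 genes showed no spread beyond counting. The longest transcripts of the 10 held 47.6% to 53.0% GC, near the point where the cultures cross in the plot of GC content.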

How the data were processed

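Poly(A) RNA of 6 control cultures was sequenced with TruSeq v2 libraries as 50 bp single-end reads. The deposited values are read counts per gene in each sample, not normalized, which the authors made with STAR 2.5.2b and featureCounts of Subread 1.5.1 on mm10, after FastQC 0.11.5. How reads with several alignments, strand and annotation were treated is not given in the sources used here. A normalized table of the whole series was not used. Of 48709 gene identifiers 48349 were named by GENCODE M21 (GRCm38, the same build), and the remaining 360 held 0.0414% of counts. TPM were computed from counts and the union of exons. Libraries held 20018234 to 37149112 counts, and replicate numbers follow the labels.

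Variation was tested with edgeR 4.0.16 (R 4.3.3): goodness of fit against the trended dispersion, an intercept alone, TMM, and at least 5 counts in at least 3 samples. On simulated data of 18672 genes with 200 given 9 times the dispersion, the test recovered 67.5%, with 3 false calls. The rate of false calls under a GC tilt between libraries was not tested. Neighbours within families were compared on log2(TPM + 0.01) by exact sign flips (scipy 1.17.1). DESeq2 1.42.0, other lengths and other filters served as alternatives, and offsets for GC content and length and a fit of the mimic cultures alone were added after the data were seen. Named genes are the 20 highest nuclear, 3 mitochondrial and 10 lncRNA genes, family members at 1 TPM or more, the 3 highest and the lowest of each marker list, the 20 most variable called genes with 100 counts or more and a regular symbol, and the 10 steadiest, ties going to the higher count, and some genes that this rule names are not reported here. The genes and lists were chosen with earlier results of these data known.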

Additional observations from a re-analysis of the deposited data

Results flagged for a closer look

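Of 108 groups of 6 values examined for a culture far from the other 5, 11 were noted. Chance would give 5.4, about 1 in 20, if the groups were independent and not chosen by their values. Neither holds, since all share the same 6 libraries and Lars2 had been named for its spread. In each of the 11 the gap from the extreme culture to its nearest neighbour took up more of the whole range than Dixon's outlier test tolerates at the 95% level. Control 1 was the extreme culture in 10 of the 11. Its mean distance to the other libraries was 0.491, against 0.351 to 0.401 for the others. It was high in the summed level of glutamatergic neuron markers (3120 TPM against 2787 to 2881), astrocyte markers (5325 TPM against 4660 to 4880), oligodendrocyte precursor markers (1223 TPM against 649 to 746) and dentate gyrus markers (134 TPM against 113 to 116). These sums are in TPM, which the mitochondrial share moves, and that share was lowest in control 1 (2.15% of counts against 2.49% to 3.66%). Its part in these gaps, and that of the GC tilt of control 1, was not tested. Not all list members took part. Highest in control 1 were 4 of 10 glutamatergic, 9 of 15 astrocyte, 3 of 7 precursor and 2 of 6 dentate markers, while 3, 2, 1 and 2 of them were lowest in it, among these Aqp4, Slc1a3 and Prox1. Of the precursor and dentate markers, Olig1 and C1ql2 were called as variable. Single genes high in control 1 were Cpe (6585 TPM against 5687 to 5918), Gap43 (2709 TPM against 2428 to 2510) and Slc6a11 (245 TPM against 206 to 219). Tmsb4x (3077 TPM against 3544 to 3698) and Cct6a (317 TPM against 344 to 358) were low in it. The remaining value was that of Lars2 in control 6, at 186 CPM against 27.1 to 58.4 in the other cultures.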

How the results depend on the processing

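No paired analysis was possible because a single group of cultures is described, so that replicate numbers pair no samples across groups (the paired test of neighbours sets 2 genes of the same culture against each other). The count of detected genes and of neighbours told apart stayed within 1.5 times of the value given under every alternative computed. The count of variable genes, 388, ranged from 239 to 291 when each culture was left out in turn (251 without control 1, 239 without control 4 and 251 without control 5), and was 54 as DESeq2 dispersion outliers, all 54 of them among the 388. The glial summed level, 5786 TPM, was 7361 CPM with no length and 6523 TPM without mitochondrial genes. With CPM and no length, log2 differences within families turned for Gria1 over Gria2 (-0.29), Grin1 over Grin2b (-1.05), Gabra5 over Gabra2 (-1.04), Chrna7 over Chrnb2 (-0.66), Syn1 over Syn2 (-0.66), Aplp1 over App (-0.87) and Ago1 over Ago2 (-0.23). With the longest transcript they turned for Slc1a2 over Slc1a3 (-0.50), Syn1 over Syn2 (-0.42) and Bace1 over Ncstn (-0.21). These turns come from the length used. Offsets for GC content and length, chosen after the data were seen, gave 374 variable genes, 164 of them shared, and the 6 mimic cultures fitted alone gave 382, of which 111 were shared. Leaving out a culture was not run for the neighbour pairs, since 5 cultures allow an exact p no lower than 0.0625. Depth limits statements on genes with few counts: 3 counts are 0.0808 to 0.150 CPM in a library.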

Other observations

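Gene groups outside the report, chosen after the values were seen, add to the picture of the cultures. Of 22 genes of the presynaptic release machinery 21 were detected at 1 TPM in every culture. The complexin genes Cplx2 and Cplx1, which clamp and trigger vesicle fusion, averaged 1161 ± 78.3 and 862 ± 71.7 TPM (n = 6), and the vesicle SNARE gene Vamp2 844 ± 36.7 TPM, while the late form Syt2 averaged 1.34 TPM. All 16 postsynaptic scaffold genes were detected, with Gphn, the organizer of inhibitory synapses, at 176 ± 3.26 TPM and Dlg4 at 160 ± 22.3. Activity-induced genes were present at low to moderate levels, with Fos at 31.9 TPM in the lowest culture, 33.1 in the median and 33.4 in the highest, and Arc at 15.9, 17.3 and 23.5 TPM. Of 17 neuropeptide and granin genes the granin gene Scg2 was highest at 610 ± 13.4 TPM and the classical peptide genes Cck, Sst and Npy averaged 258, 69.3 and 65.0 TPM.

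Of a panel of 33 genes known from reactive astrocytes, 8 of 32 tested were called as variable between cultures, beside 2.04% of all genes, and 7 of the 8 were lowest in control 1. All 8 were called when GC content and length were fitted, and 3 without control 1. Lcn2, a secreted iron-trafficking protein, had 59.9 TPM in control 1, a median of 126 and 158 TPM in control 2, and Steap4, a metalloreductase, had 33.6, 72.2 and 79.8 TPM in the same order. Serpina3n, another gene of the panel, varied less, with 206, 219 and 246 TPM (edgeR adjusted p = 1.00). Of 10 smooth muscle contraction genes tested 4 were called, Acta2, Tagln, Cnn1 and Tpm2, each lowest in control 1. Of 21 interferon response genes tested 2 were called, Oasl2 and Samd9l. All 4 and both were also called when GC content and length were fitted. Leaving out control 1 kept 3 of the 4 and 1 of the 2.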
